A study of Mus musculus with 16 samples.

Results

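Keratins are the intermediate filament proteins of epithelial cells, and together with the cadherins, claudins and desmosomal proteins that join neighbouring cells they are the usual marks of an epithelium. In the mammary gland the luminal cells that line the ducts carry the simple keratins KRT7, KRT8, KRT18 and KRT19, and the basal myoepithelial cells around them carry KRT5 and KRT14, while the surrounding fibroblasts are held to express little of either kind. Keratins work as pairs of a type I and a type II protein, KRT18 with KRT8 in simple epithelia and KRT14 with KRT5 in basal cells.

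The 10 genes described here are these 6 keratins, namely KRT5, KRT7, KRT8, KRT14, KRT18 and KRT19, and 4 junction genes, namely the adherens junction cadherin CDH1, the desmosomal proteins JUP (plakoglobin) and DSP (desmoplakin) and the tight junction claudin CLDN4. All 10 were found, by exact symbol, among the 18132 gene symbols of the array table, which writes mouse genes in capitals. They were chosen by values measured on these same arrays, that is their levels by genotype and replicate number and their stability between untreated and conditioned medium, so their levels and differences are given as a description with no test.

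The arrays hold RNA from primary fibroblasts of the inguinal mammary glands of female mice of strain 129S6, 8 to 10 weeks old, of genotype MEKK1+/+ or MEKK1-/-. MEKK1 is a kinase of the MAP kinase cascades, encoded by MAP3K1, and MEKK1-/- mice lack it. Cultures of each genotype were left untreated or were given conditioned medium (CM), in which the human breast cancer line MDA-MB-231 had been grown, for 8 h, and each of the 4 combinations has 4 arrays. The methods name 3 mice per genotype and 4 culture replicates, so some cultures of a genotype share a mouse, the labels do not say which, and errors between arrays can be smaller than those between mice. During isolation a pellet of epithelial cells was discarded and the suspended cells were plated, so epithelial cells are the cells that this preparation aims to lose.

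Values below are log2 intensities after quantile normalization, where a difference of 1 is a doubling. On every array the 99th percentile of 1075 olfactory receptor genes, which these cells are not known to use, was taken as the level without signal. It lay between 7.20 and 7.34, and a value at or under it does not show whether a gene is expressed. Arrays of the same group correlated at 0.979 to 0.996 over all genes. As for the labelled cell type, 9 of 10 fibroblast genes were above the level without signal on all 16 arrays, with THY1 between 14.57 and 14.83 and COL1A1 between 13.91 and 14.68. MAP3K1 itself was not lower on arrays labelled MEKK1-/-, where its group medians were 8.24 and 8.10 against 7.69 and 7.67 in MEKK1+/+. The sources used here do not say whether the probe lies in the deleted part of the gene, so it does not check the genotype labels and genotypes are given as labelled.

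RefSeq promoter windows of build GRCm38.p6 were at hand for 8 of the 10 genes. The windows of 5 are shown, 250 bases ending just before the annotated start, read 5′ to 3′ on the strand of the gene. KRT8, KRT18, KRT14 and CLDN4 are shown because their levels varied together over the cultures, and KRT5 because it is the usual partner of KRT14 and did not vary with it. KRT8 lies at chr15:102004343-102004592 on the minus strand, KRT18 at chr15:102027966-102028215 on the plus strand, KRT14 at chr11:100206031-100206280, KRT5 at chr15:101712906-101713155 and CLDN4 at chr5:134946935-134947184, the last 3 on the minus strand. Capitals mark matches, on either strand, to the 4 motifs that were searched: the TATA box TATAAA, the GC box GGGCGG, the AP-1 motif TGANTCA and the E-box CACCTG.
KRT8: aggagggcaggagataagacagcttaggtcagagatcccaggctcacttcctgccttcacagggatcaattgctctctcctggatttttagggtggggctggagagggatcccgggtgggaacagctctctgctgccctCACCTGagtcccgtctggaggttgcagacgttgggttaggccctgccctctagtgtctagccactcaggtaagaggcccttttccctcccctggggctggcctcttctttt
KRT18: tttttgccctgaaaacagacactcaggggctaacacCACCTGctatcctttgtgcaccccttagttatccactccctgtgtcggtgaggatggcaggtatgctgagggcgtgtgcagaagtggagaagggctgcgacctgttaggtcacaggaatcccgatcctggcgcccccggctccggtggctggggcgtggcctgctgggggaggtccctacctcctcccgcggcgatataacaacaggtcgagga
KRT14: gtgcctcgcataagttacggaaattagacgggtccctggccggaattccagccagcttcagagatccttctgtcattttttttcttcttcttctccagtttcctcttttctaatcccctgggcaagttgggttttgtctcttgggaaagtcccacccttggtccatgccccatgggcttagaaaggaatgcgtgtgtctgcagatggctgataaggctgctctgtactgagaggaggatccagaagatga
KRT5: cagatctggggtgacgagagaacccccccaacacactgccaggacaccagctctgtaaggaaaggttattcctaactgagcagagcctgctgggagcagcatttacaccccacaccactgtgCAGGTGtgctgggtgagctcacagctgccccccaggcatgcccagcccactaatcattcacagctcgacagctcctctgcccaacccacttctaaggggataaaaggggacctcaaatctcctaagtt
CLDN4: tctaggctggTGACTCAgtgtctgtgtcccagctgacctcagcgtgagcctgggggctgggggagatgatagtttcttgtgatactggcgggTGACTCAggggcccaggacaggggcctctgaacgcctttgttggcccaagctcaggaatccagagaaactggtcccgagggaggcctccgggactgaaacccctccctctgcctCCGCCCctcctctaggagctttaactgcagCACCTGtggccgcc

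The CACCTG letters stood in 5 of the 8 windows, those of KRT5, KRT7, KRT8, KRT18 and CLDN4, against 17.2% of all 32851 windows in the RefSeq table. The KRT8 match starts 111 bases before the start and the KRT18 match 214 bases before it. Both AP-1 matches of the 8 windows lay in CLDN4, at 240 and 158 bases before the start, and 6.75% of all windows hold that motif. GC boxes stood in 4 windows (KRT7, JUP, DSP and CLDN4; 32.7% of all windows) and TATAAA in 0 (12.4%). KRT14 held none of the 4 motifs. A match is a description of letters and not a binding site, and no match in these windows says nothing about a factor.

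The simple keratin pair KRT8 and KRT18 was near the level without signal in all MEKK1+/+ cultures and stood far above it in 1 of the 4 MEKK1-/- cultures of each treatment. KRT8 measured 11.82, 7.46, 8.62 and 8.52 on untreated MEKK1-/- replicates 1 to 4. With CM the same replicate numbers gave 11.61, 7.11, 8.10 and 8.00. The MEKK1+/+ arrays ran from 7.35 to 7.71 untreated and from 7.21 to 7.43 with CM. Replicate 1 was thus the highest MEKK1-/- array in both treatments, replicates 3 and 4 lay between it and the MEKK1+/+ arrays, and replicate 2 lay among the MEKK1+/+ arrays or just under them. Against the mean of MEKK1+/+ arrays of the same treatment, KRT8 was 20.5-fold higher on untreated replicate 1 and 19.5-fold higher with CM, and 2.23-fold and 2.08-fold higher on untreated replicates 3 and 4. KRT18, its type I partner, gave 10.41, 6.94, 7.61 and 7.67 untreated and 10.20, 6.93, 7.14 and 7.50 with CM on the MEKK1-/- arrays. All 8 MEKK1+/+ arrays, at 6.66 to 7.11, were under the level without signal for KRT18, so only a bound can be given there, at least 9.08-fold on untreated replicate 1 and at least 7.83-fold with CM. In a bulk culture, a larger number of keratin-bearing cells and more keratin RNA per cell cannot be told apart.

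**Figure D1:**
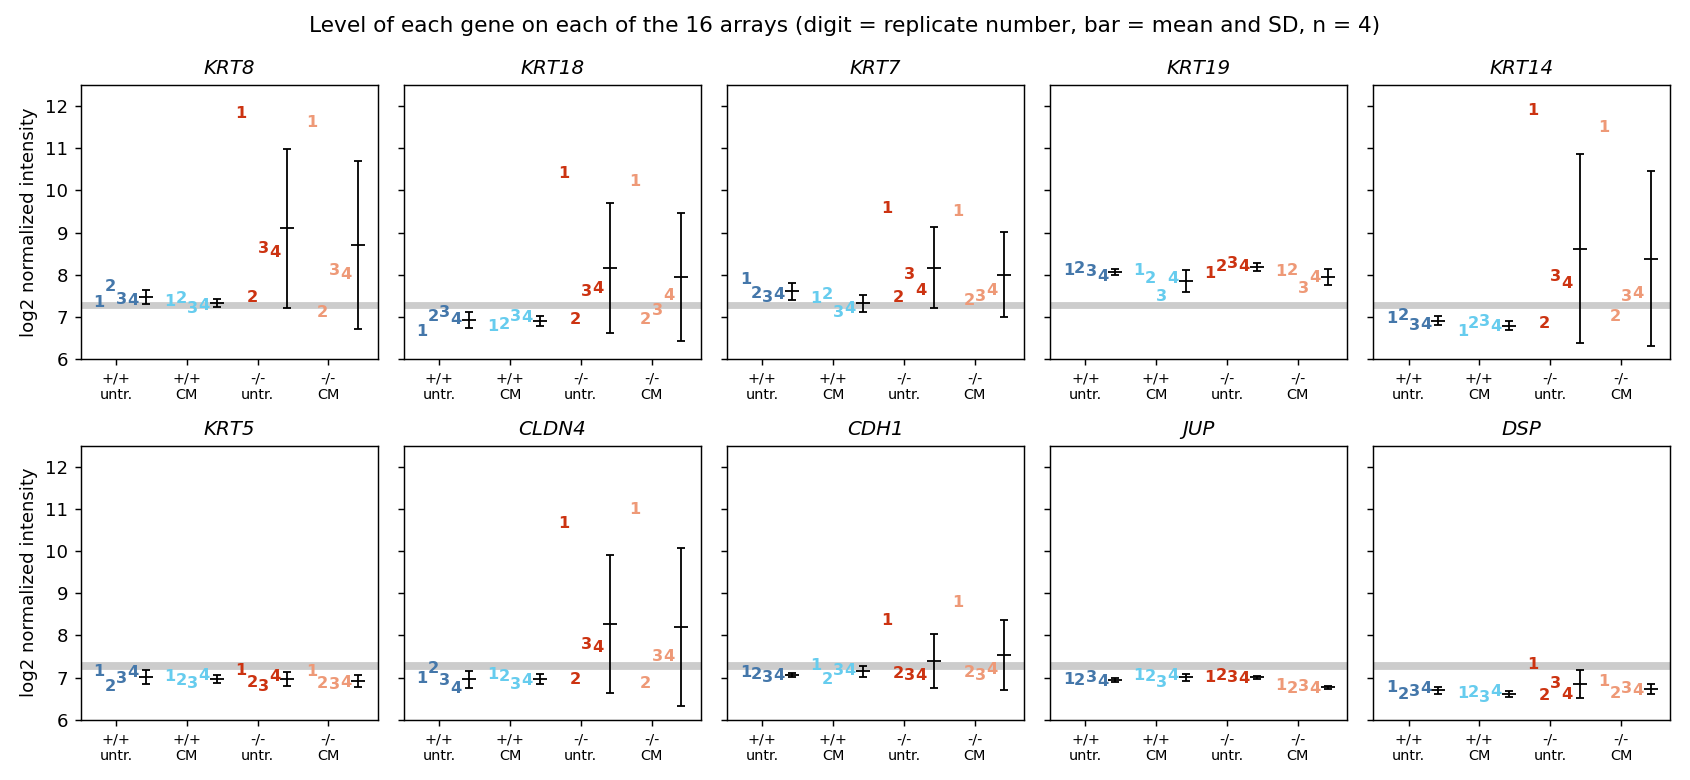
Log2 normalized intensity (vertical axis) of each of the 10 genes on each array, by group (horizontal axis); digits are replicate numbers, the black bar is the group mean with its SD (n = 4), and the grey band spans the level without signal, 7.20 to 7.34. Replicate 1 of MEKK1-/- stands above the other arrays for KRT8, KRT18, KRT7, KRT14, CLDN4 and CDH1 in both treatments, while KRT19, KRT5 and JUP show no such array.

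KRT7 and KRT19, the other simple keratins, differed from each other in pattern. KRT7 was 9.56, 7.47, 8.01 and 7.62 on untreated MEKK1-/- arrays and 9.51, 7.38, 7.48 and 7.63 with CM, against 7.11 to 7.89 over the 8 MEKK1+/+ arrays. Untreated replicate 3 lay just above that range, and replicate 1 stood far above it, at 3.87-fold and 4.54-fold the MEKK1+/+ mean of its treatment. With CM only 2 of the 4 MEKK1+/+ arrays were above the level without signal, so the second fold rests partly on values without signal. KRT19 was the one gene of the 10 that was above the level without signal on all 16 arrays. Its untreated values were 8.09, 8.14, 8.07 and 7.95 in MEKK1+/+ and 8.04, 8.19, 8.26 and 8.20 in MEKK1-/-. With CM it gave 8.09, 7.90, 7.48 and 7.92 in MEKK1+/+ and 8.07, 8.10, 7.68 and 7.94 in MEKK1-/-. The 4 groups overlapped, and the MEKK1-/- replicate 1 arrays lay within the MEKK1+/+ range.

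Of the basal keratins, KRT14 had the pattern of KRT8 and KRT5 did not. KRT14 measured 11.90, 6.84, 7.95 and 7.78 on untreated MEKK1-/- replicates 1 to 4 and 11.48, 7.00, 7.49 and 7.55 with CM. Its 8 MEKK1+/+ values, from 6.65 to 7.03, were all under the level without signal. In deposited intensity units the MEKK1-/- replicate 1 arrays read 2980 untreated and 2870 with CM, and the 8 MEKK1+/+ arrays 87.0 to 145. The bounds against MEKK1+/+ were at least 25.5-fold untreated and at least 19.1-fold with CM on replicate 1, and between 1.20-fold and 1.64-fold at least on replicates 3 and 4. With CM the lowest MEKK1-/- array (7.00, replicate 2) was above the highest MEKK1+/+ array (6.88), both under the level without signal. KRT5, the type II partner of KRT14 in basal cells, was under the level without signal on all 16 arrays, at 6.78 to 7.17. Its probe therefore measured no signal on the same arrays where KRT14 was at its highest.

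CLDN4, a claudin of the tight junction, followed the keratins. It gave 10.66, 6.95, 7.78 and 7.72 on untreated MEKK1-/- arrays and 10.98, 6.85, 7.50 and 7.49 with CM. MEKK1+/+ arrays lay between 6.73 and 7.21, all under the level without signal, so replicate 1 was at least 10.8-fold higher untreated and at least 13.5-fold higher with CM. CDH1, the epithelial cadherin, was at 8.36 and 8.79 on the MEKK1-/- replicate 1 arrays, and the other MEKK1-/- arrays were at 7.05 to 7.20, inside the MEKK1+/+ range of 6.95 to 7.29. On replicates 3 and 4, where KRT8, KRT14 and CLDN4 were above the level without signal, CDH1 was not.

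The desmosomal genes were near or under the level without signal. DSP passed it once, at 7.30 on untreated MEKK1-/- replicate 1, and ran from 6.52 to 6.90 elsewhere. JUP, which links desmosomal and classical cadherins to the cytoskeleton, stayed at 6.74 to 7.06 on all 16 arrays. The values of JUP, KRT5 and, on 15 arrays, DSP are therefore those of probes without measurable signal, and an absence of the transcript cannot be read from them.

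Across the 10 genes, both MEKK1-/- replicate 1 arrays were above all 14 other arrays for 7 (KRT7, KRT8, KRT14, KRT18, CDH1, CLDN4 and DSP), which is 70% of them, where 625 of 18132 genes or 3.45% of the table did the same. Since levels by replicate number chose the genes, this share describes them and supports nothing further. Of the 10, 8 passed the level without signal on some array, 6 on at least 4 arrays and 1 on all. These 6 were KRT7, KRT8, KRT14, KRT18, KRT19 and CLDN4, and a count over them would favour genes that are high in MEKK1-/- cultures, so none is given.

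Other genes of the same kind show how far the pattern reached. Their lists too were drawn up with earlier results of these data known, so the shares are a description. Of 53 other keratin, junction and epithelial genes in the table, 31 were at or under the level without signal on every array and 8 (15.1%, against 3.45% of all genes) were higher on both MEKK1-/- replicate 1 arrays than on all other 14. Those of the 8 described next were named after their values were seen. KRT17, a keratin of basal and stressed epithelia, was at 10.67 and 10.57 on replicate 1 and at 6.56 to 7.29 elsewhere. LAMB3, a chain of the epithelial laminin 332, was at 8.63 and 8.50 against at most 7.22 elsewhere. The integrin ITGB4, which binds that laminin in hemidesmosomes, was at 8.72 and 8.39 against at most 7.71. The claudin CLDN3 was at 7.99 and 7.94 against at most 7.01. RBM35A, the older name of the epithelial splicing regulator ESRP1, was at 7.97 and 8.35 against at most 7.02, and the desmosomal plakophilin PKP1 at 7.80 and 7.68 against at most 7.15. Of the 53, 5 (9.43%) passed the level without signal on both replicate 1 arrays and nowhere else, beside 27 genes or 0.149% of the table. PKP1, CLDN3, RBM35A and LAMB3 were among these 5, and all 5 belong to the 8, so this is the same pattern counted again.

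**Figure D2:**
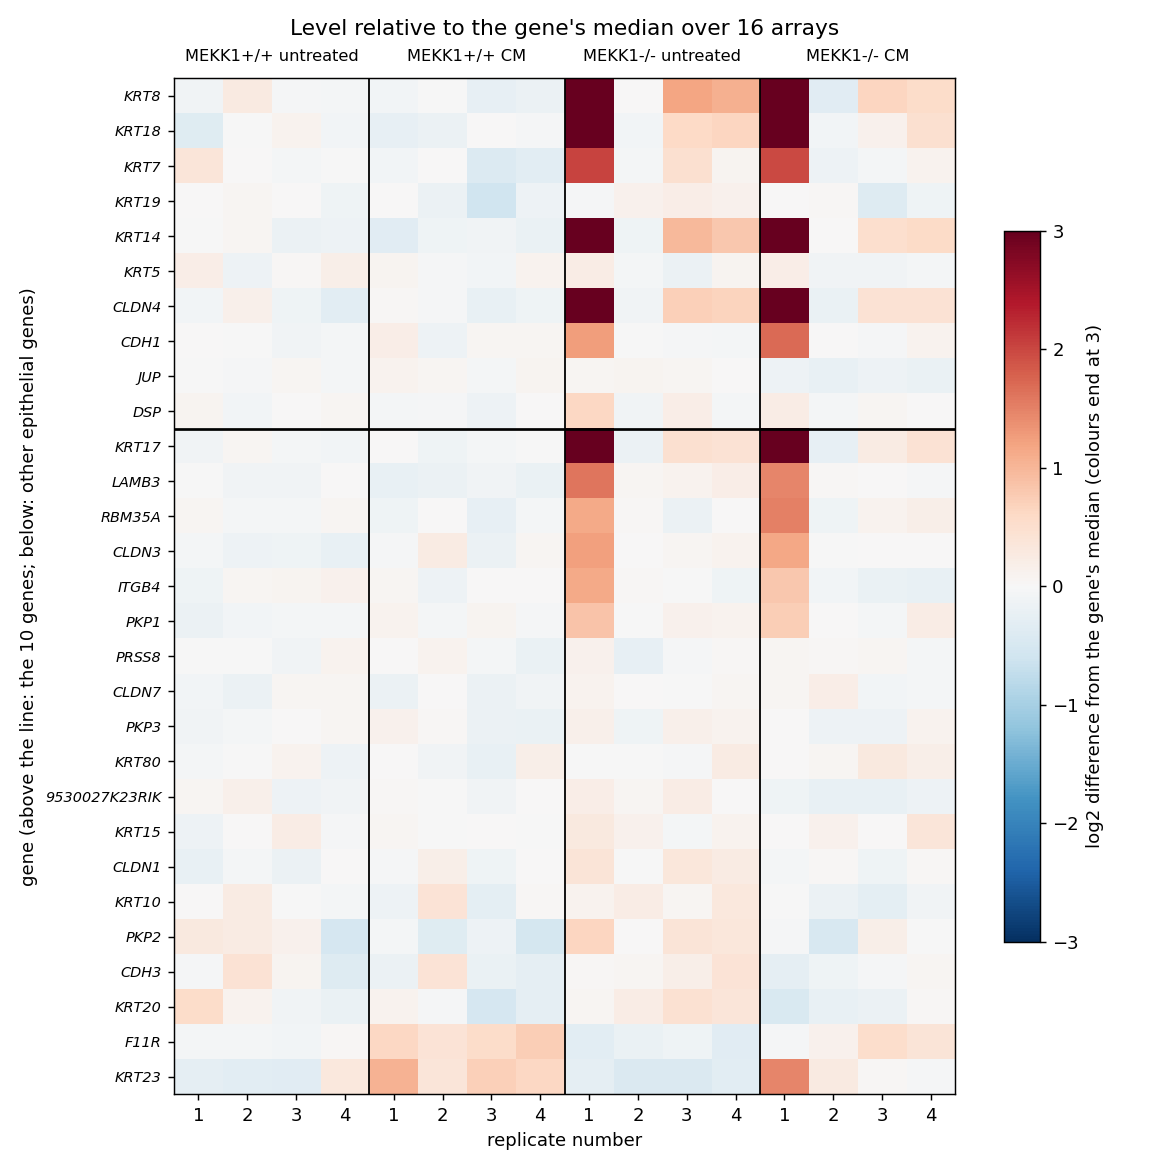
Log2 level minus the gene's median over the 16 arrays (colour, ending at 3) for the 10 genes (above the line) and 19 of the 22 other keratin, junction and epithelial genes that passed the level without signal on some array (below the line; the other 3 are not reported by name), by group and replicate number (columns). The MEKK1-/- replicate 1 columns of both treatments are reddest for KRT7, KRT8, KRT14, KRT18, CLDN4 and KRT17, with paler red for KRT8, KRT14, KRT18 and CLDN4 in replicates 3 and 4. Many genes drawn, KRT19, JUP, KRT10 and F11R among them, are not raised in those replicate 1 columns.

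Other marks of epithelial identity were not measurable. The basal regulator TRP63, the alveolar regulator ELF5 and the milk protein genes CSN2 and WAP passed the level without signal on 0 arrays, the replicate 1 arrays included. Genes that repress epithelial genes were present throughout, with SNAI1 at 9.38 to 10.25, ZEB1 at 9.69 to 10.73 and ZEB2 at 7.64 to 8.01, and the mesenchymal filament gene VIM at 12.51 to 13.51. On the untreated MEKK1-/- replicate 1 array ZEB1 was at its lowest of the 16 arrays, 9.69, while VIM, at 13.51, and ZEB2, at 8.01, were at their highest. The replicate 1 array with CM did not repeat this, with ZEB1 at 9.99, VIM at 13.11 and ZEB2 at 7.95, none past the other arrays. The cadherin CDH2 had no measurable signal on any array. Of 5 cytoplasmic partners of cadherins, CTNNA1 was at 12.97 to 13.74 and CTNNB1 at 11.12 to 11.76, while the probe of CTNND1 had no measurable signal on any array.

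Markers of other cell types also differed between these arrays. Of 6 endothelial genes, 4 were higher on both MEKK1-/- replicate 1 arrays than on all others: ESAM at 9.20 and 8.97 (at most 8.03 elsewhere), CLDN5 at 8.42 and 8.51 (at most 8.15), PECAM1 at 7.41 and 7.74 (at most 7.23) and CDH5 at 7.36 and 7.30 (at most 7.04). The summed endothelial level reached 1597 untreated and 1517 with CM on those arrays, and spanned 766 to 963 in MEKK1+/+. KDR, a defining endothelial receptor, had no measurable signal on any array. The summed level of the 10 macrophage genes was 7064 to 30455 in MEKK1+/+ and 3185 to 20266 in MEKK1-/-. Its highest MEKK1-/- array of either treatment was replicate 2, which was lowest for KRT7, KRT8, KRT14 and KRT18 but not for KRT5 or KRT19. Replicate 1, where those 4 keratins were highest, had the next highest sums, 8369 untreated and 9370 with CM. PTPRC, the common leukocyte antigen, was under the level without signal everywhere and LYZ2 lay at 10.76 to 14.48. Of 9 mesothelial genes MSLN, UPK3B, UPK1B, LRRN4 and CALB2 had no measurable signal on any array, and BNC1 passed the level without signal on 2 arrays, at up to 7.45, but on neither MEKK1-/- replicate 1 array (6.97 and 7.01). The other 3 on that list are KRT8, KRT18 and KRT19 themselves, and with them the list summed to 5901 and 5244 on MEKK1-/- replicate 1 and to 1185 to 1327 in MEKK1+/+. All 5 genes of fat cells had no measurable signal on any array. The 10 fibroblast genes summed to 65441 to 73834 untreated over both genotypes. The part of these other cell types in the keratin values was not tested.

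**Figure D3:**
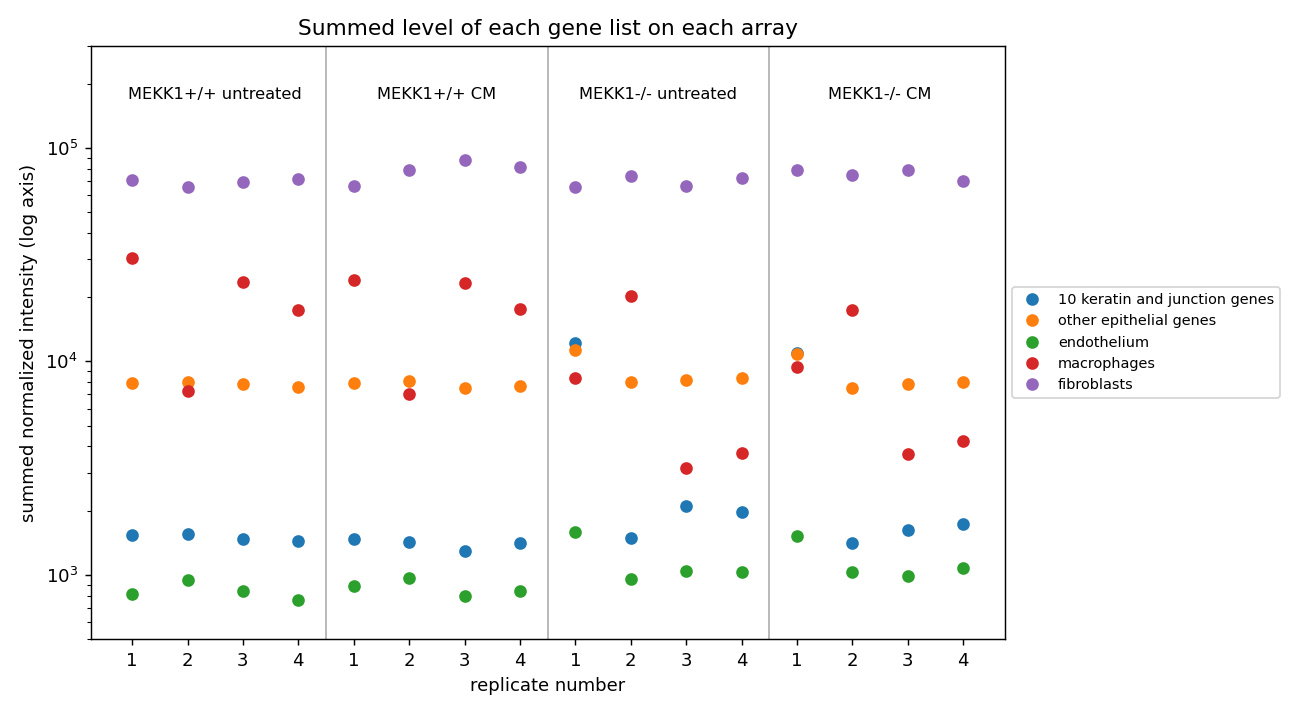
Summed normalized intensity of each gene list (vertical axis, logarithmic) on each of the 16 arrays (horizontal axis, replicate number within group). The 10 keratin and junction genes sum to 12203 and 10997 on MEKK1-/- replicate 1 and to 1296 to 1553 on MEKK1+/+ arrays, and the macrophage list is lowest on MEKK1-/- replicates 3 and 4.

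The comparison of genotypes asks whether loss of MEKK1 changes the cells' expression, and for these genes the size of the difference depended on replicate 1. In untreated cells the MEKK1-/- mean was higher by 1.64 (log2, SE 0.87) for KRT8, 1.71 (SE 0.97) for KRT14, 1.23 (SE 0.69) for KRT18 and 1.31 (SE 0.79) for CLDN4, in each case with overlapping groups of 4. Without both MEKK1-/- replicate 1 arrays the same differences were 0.74 (SE 0.26), 0.62 (SE 0.21), 0.48 (SE 0.17) and 0.52 (SE 0.20). With CM they were 1.38 for KRT8, 1.59 for KRT14, 1.04 for KRT18 and 1.24 for CLDN4, falling to 0.41, 0.56, 0.29 and 0.31 without replicate 1. CDH1 went from 0.33 to 0.01 untreated and from 0.40 to -0.02 with CM, and KRT7 from 0.56 to 0.09 and from 0.67 to 0.17. KRT19 differed by 0.11 (SE 0.11) untreated and 0.10 (SE 0.11) with CM. The median over the 10 genes was 0.44 untreated and 0.54 with CM, and 0.12 in each without replicate 1, while the median over all genes was 0.01 untreated, 0 with CM and 0.01 in each without replicate 1.

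JUP, under the level without signal throughout, differed by 0.06 (SE 0.05) untreated and by -0.23 (SE 0.05) with CM. On the values as deposited the latter was 0.09, so the direction for JUP turned with the scaling of the arrays.

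Although their lists were drawn up with earlier results of these data known, the 53 other epithelial genes were not among the 10. With p adjusted by Benjamini-Hochberg over the 18132 genes of the table (limma, threshold 0.05), 0 of them were called between genotypes untreated, beside 0% of the table, 0 with CM, beside 0.00552% (1 gene), and 0 for the interaction of genotype and CM, beside 0%. At an unadjusted p under 0.05 they counted 3 in each comparison, where the table counted 1680, 1466 and 473. The test on z-scores that the methods name called 2 of them untreated (CLDN1 and F11R), beside 4.51% of the table, 1 with CM (9530027K23RIK), beside 2.54%, and 0 for the interaction, beside 0.11%. With CM 9530027K23RIK differed by -0.17 (log2, SE 0.07) between genotypes and by 0.14 on the values as deposited, so its direction turned with the scaling too.

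**Figure D4:**
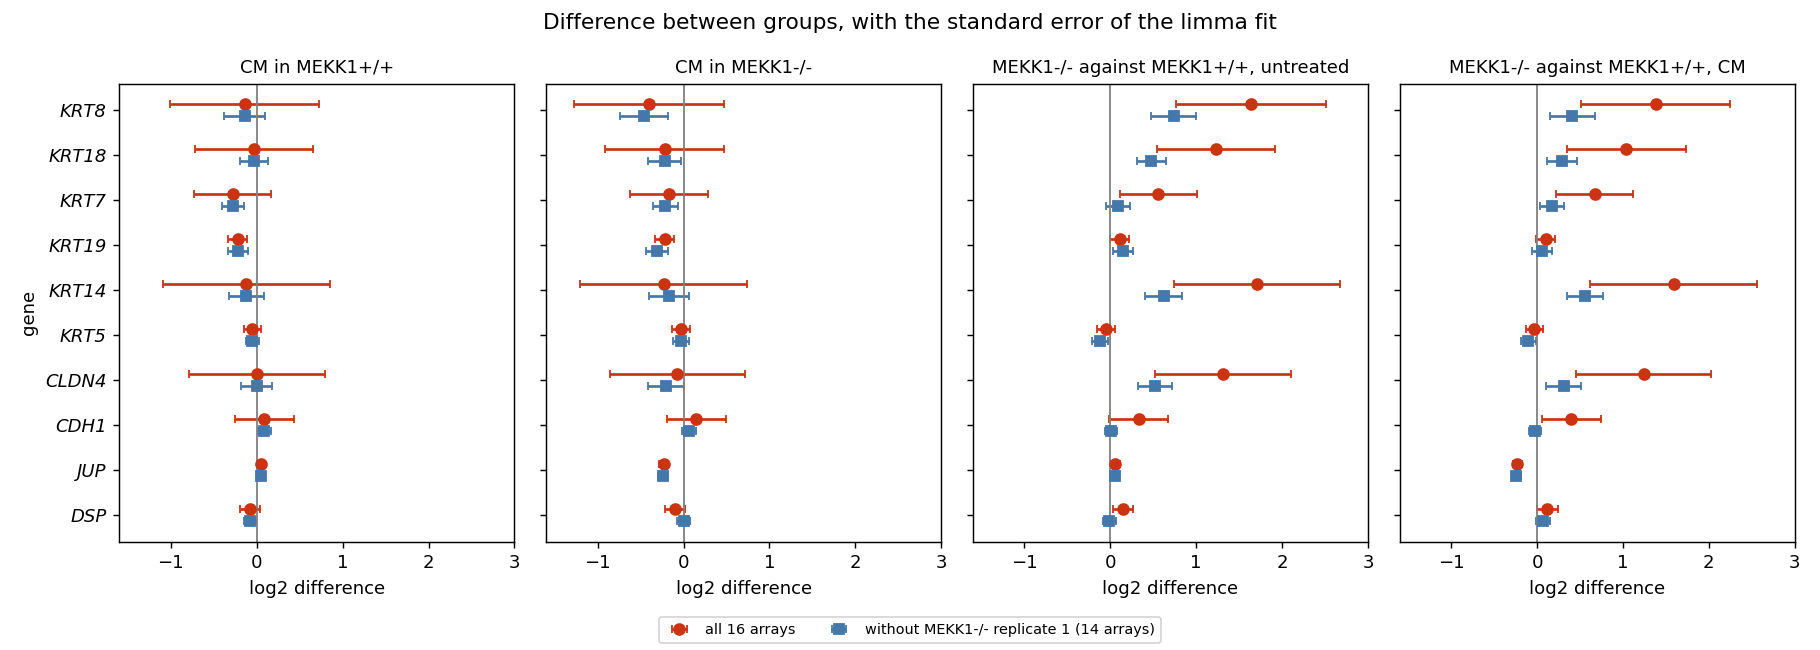
Log2 difference between groups (horizontal axis) with the SE of the limma fit for the 10 genes in 4 comparisons, over all 16 arrays (red circles) and without both MEKK1-/- replicate 1 arrays (blue squares). The genotype differences of KRT8, KRT14, KRT18 and CLDN4 lie between 1.04 and 1.71 with those arrays and between 0.29 and 0.74 without them.

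The comparison of treatments asks how the cells respond to tumour cell medium, and the keratin pattern was much the same with and without it. In MEKK1-/- the arrays of replicate 1 differed between treatments by -0.21 for KRT8, -0.42 for KRT14, -0.22 for KRT18, 0.32 for CLDN4, -0.05 for KRT7 and 0.43 for CDH1, while the range over the 4 untreated cultures was 4.36 for KRT8, 5.07 for KRT14, 3.47 for KRT18 and 3.71 for CLDN4. The order of the 4 replicate numbers was the same in both treatments for KRT8, KRT18 and CLDN4. The labels do not say that equal numbers mark the same culture, and over all genes replicates 3 and 4 each correlated best with the other number. For KRT18 and CLDN4 the order includes values under the level without signal, and for CLDN4 it rests on 7.50 against 7.49 with CM. The order was also the same for KRT5 and DSP, but there it ranks values under the level without signal, except DSP on untreated replicate 1. KRT7, KRT8, KRT14, KRT18 and CLDN4 had replicate 1 highest and replicate 2 lowest in both. KRT8 was lower with CM in all 4 replicate numbers, by 0.21, 0.35, 0.52 and 0.53, and KRT18 also in all 4, by 0.22, 0.01, 0.47 and 0.17. Some of these values were under the level without signal: KRT8 on replicate 2 with CM, and KRT18 on replicate 2 in both treatments and on replicate 3 with CM. On the values as deposited the differences of replicate 1 were 0.16 for KRT8 and 0.23 for KRT18, so for replicate 1 both directions turned with the scaling of the arrays. Those of replicates 2, 3 and 4 stayed negative, at -0.64, -0.24 and -0.6 for KRT8 and -0.27, -0.27 and -0.21 for KRT18.

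**Figure D5:**
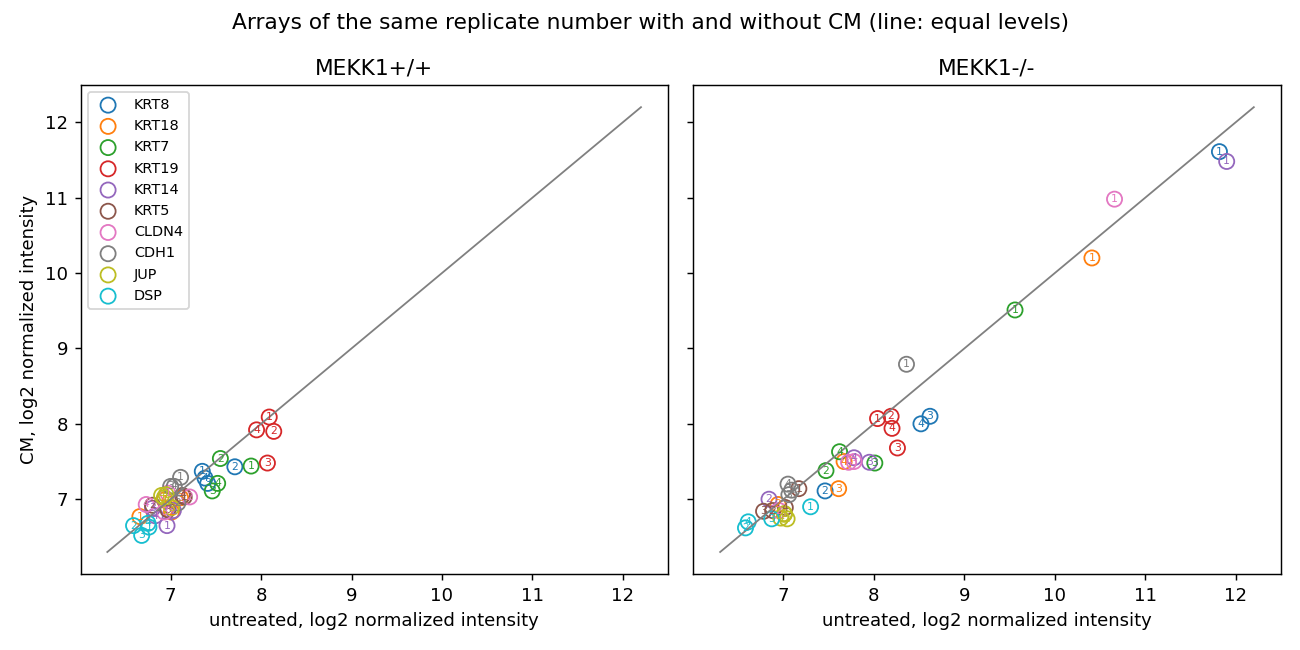
Level with CM (vertical axis) against the untreated level (horizontal axis) of arrays of the same replicate number, both in log2 normalized intensity, for the 10 genes in MEKK1+/+ (left) and MEKK1-/- (right); digits are replicate numbers and the line marks equal levels. MEKK1-/- replicate 1 lies near the line at 9.51 and above for KRT7, KRT8, KRT14, KRT18 and CLDN4, and no MEKK1+/+ point passes 8.14 on either axis.

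The mean effect of CM in MEKK1-/- was -0.40 (SE 0.87) for KRT8, -0.23 (SE 0.97) for KRT14, -0.22 (SE 0.69) for KRT18, -0.07 (SE 0.79) for CLDN4, -0.22 (SE 0.11) for KRT19 and 0.15 (SE 0.34) for CDH1. JUP was 7.01, 7.04, 7.01 and 6.97 untreated and 6.81, 6.74, 6.80 and 6.75 with CM, a difference of -0.23 (SE 0.05) between groups that did not overlap, on a probe under the level without signal throughout. The difference was also -0.23 on the values as deposited, but there the groups overlapped, at intensities of 120 to 144 untreated and 98.7 to 134 with CM.

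In MEKK1+/+ CM moved the 10 genes by between -0.28 (KRT7, SE 0.45) and 0.09 (CDH1, SE 0.34). The differences were -0.14 (SE 0.87) for KRT8, -0.12 (SE 0.97) for KRT14, -0.22 (SE 0.11) for KRT19 and 0.05 (SE 0.05) for JUP. These SEs come from a spread shared by all 4 groups and so carry the spread of the MEKK1-/- cultures. Without both MEKK1-/- replicate 1 arrays the SE of KRT8 was 0.24 and that of KRT14 0.20, and the differences were as before.

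Among the 53 other epithelial genes, 2 were called for CM in each genotype, 1 higher and 1 lower, beside 5.01% of the table in MEKK1+/+ and 4.69% in MEKK1-/-. F11R, which encodes the junctional adhesion molecule JAM-A, rose in MEKK1+/+ from 7.57 ± 0.06 to 8.19 ± 0.14 (SD, n = 4), a difference of 0.62 (SE 0.10, limma adjusted p = 0.00303). In MEKK1-/- F11R rose from 7.37 ± 0.10 to 7.86 ± 0.25 (SD, n = 4), by 0.49 (SE 0.10, limma adjusted p = 0.0129). It was higher on all 4 treated than on all 4 untreated arrays in each genotype, the interaction was -0.13 (SE 0.15, limma adjusted p = 1), and on the values as deposited neither rise passed (0.32 and 0.47, limma adjusted p = 0.188 and 0.761). The transcript 9530027K23RIK, an older name of the splicing regulator ESRP2, fell in MEKK1-/- from 7.45 ± 0.10 to 7.14 ± 0.05 (SD, n = 4), by 0.31 (SE 0.07, limma adjusted p = 0.0204), with all 4 untreated and 0 treated arrays above the level without signal. Its call was lost without untreated replicate 1 or 3 or treated replicate 2 or 3 of MEKK1-/-, at -0.28 to -0.30, and on the values as deposited, at -0.27. The median difference over the 53 genes was -0.02 in MEKK1+/+ and -0.01 in MEKK1-/-, against 0 over all genes in each. With the replicate number as a block 6 of the 53 were called in MEKK1-/-, beside 7.93% of the table, where 2 were called without it.

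Genes above the level without signal on at least 4 arrays were ranked by Pearson correlation over the 16 arrays with a score of the keratin pattern. The score was the mean over KRT7, KRT8, KRT14, KRT18, KRT19 and CLDN4 of the log2 level minus the gene's own mean. KRT17, LAMB3, CLDN3, RBM35A and PKP1 passed the level on fewer arrays and were not ranked. The ranking therefore does not show which genes of the whole table were most like the keratins. Arrays of a genotype can share a mouse, and with the MEKK1-/- replicate 1 arrays far above the rest r mostly measures those arrays. It is therefore a description with no test. Of 8791 other genes, WFDC2, a secreted protein of ductal epithelia, had the highest r, 0.989. It was at 10.99 and 11.07 on MEKK1-/- replicate 1, at 7.47 to 7.82 on replicates 3 and 4, at 6.93 and 6.80 on replicate 2 and at most 7.11 in MEKK1+/+. LOC100046120, a locus with no gene name here, followed with r = 0.976 and values of 11.29 and 11.30 on replicate 1 and at most 7.94 elsewhere. The next were GPIHBP1 (0.936), which carries lipoprotein lipase in capillaries, the folate carrier SLC19A1 (0.932), the mitotic kinase PLK1 (0.92), the focal adhesion protein TNS4 (0.914), the growth factor PDGFB (0.913), the endothelial adhesion molecule ESAM (0.911), the transcription factor SOX18 (0.909) and MCF2L (0.908), a guanine nucleotide exchange factor.

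Over the 14 arrays without MEKK1-/- replicate 1, WFDC2 kept an r of 0.83 and SOX18 of 0.81, while TNS4 had 0.24 and PDGFB -0.41, and 0 of the 10 genes named were among the 10 highest of that ranking. The list also depended on the scaling of the 16 arrays. Of the 10 genes named, 5 stayed among the 10 highest on the values as deposited and 6 with arrays set to the same median. As deposited, r was 0.99 for WFDC2 and 0.79 for MCF2L. KRT19, though part of the score, had an r of 0.202 with it over 16 arrays, against 0.976 for KRT7 and 0.991 or more for KRT8, KRT14, KRT18 and CLDN4. Each of these genes is part of the score it is set against, and KRT14, KRT18 and CLDN4 entered it only through MEKK1-/- arrays. Their r values were thus partly set in advance and support nothing further.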

How the data were processed

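RNA from 16 cultures was hybridised to Illumina Mouse 8 arrays. The authors' core facility deposited one linear intensity per gene symbol and array, normalized by a method not given in the sources used here, and array medians ran from 114 to 170.1. How the facility merged probes of a gene is likewise not given, so a value can rest on a weak probe, and the number of arrays limits the precision. Deposited intensities were put on a log2 scale, quantile normalized and fitted with limma 3.58.1 (R 4.3.3; lmFit and eBayes, 4 groups over all 16 arrays, 12 residual degrees of freedom) with Benjamini-Hochberg adjustment over 18132 genes and a threshold of 0.05, after the code was tested on simulated data. The methods' test, a z-test on z-scores of each array, was run as an alternative, with other scalings, a filter (above the level without signal on at least 4 arrays), 16 added before log2, a trended prior, a replicate block, fits on the groups compared and leave-one-out. Groups and replicate numbers come from the sample labels.

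The 10 genes and all gene lists were chosen with earlier results of these data known. Named beyond them were other keratin, junction and epithelial genes past the threshold and the 10 genes most correlated with the keratin score. Only genes above the level without signal on at least 4 arrays entered that ranking. KRT1, DSG3, EVPL, CGN, EPCAM, WT1, FN1 and SNAI2 were not analysed here, and some genes counted in the lists are not reported here by name. Within MEKK1-/-, the deviations from the group means of same-numbered arrays correlated at 0.505, 0.403, 0.219 and 0.251 over all genes, above the minimum of 0.1 set for pairing, although untreated replicate 3 correlated best with treated replicate 4 (0.28) and untreated replicate 4 with treated replicate 3 (0.541). In MEKK1+/+ they correlated at -0.0379, 0.485, 0.12 and 0.576, where replicate 1 missed it. Bounds ("at least") were set against the level without signal where no MEKK1+/+ array of the treatment passed it. Promoter windows came from RefSeq and were used as printed.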

Additional observations from a re-analysis of the deposited data

Results flagged for a closer look

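Among the 52 groups of 4 arrays checked for a value far from the others, 5 held one. Levels by replicate number chose the 10 genes, so this count is a description and is not set against a rate by chance. All 5 were MEKK1-/- replicate 1. With CM they were KRT7 at 9.51 (the next array at 7.63), KRT14 at 11.48 (7.55), CLDN4 at 10.98 (7.50) and CDH1 at 8.79 (7.20). Untreated, CDH1 at 8.36 (7.09) stood apart in the same way. Replicate 1 was also the highest MEKK1-/- array for KRT8 and KRT18 in both treatments and for KRT7, KRT14 and CLDN4 untreated, where its gap to the next array was a smaller part of the range of the group and did not meet the criterion. Whether replicate 1 of both treatments came from one mouse or one preparation of cells is not given in the labels and was not tested.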

How the results depend on the processing

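Each value was recomputed under the alternatives named above, leaving out both MEKK1-/- replicate 1 arrays being one added after the data were seen. No difference called by limma turned its direction under any of them, and the high level of KRT7, KRT8, KRT14, KRT18 and CLDN4 on MEKK1-/- replicate 1 stood on the values as deposited too. For CM in MEKK1+/+, the called genes numbered 909, and 1916 by the z-test, 1481 with the replicate block and 591 in a fit of the groups compared; the other epithelial genes called were 2, and 1 as deposited and 4 by the z-test. The median of the 10 genes there, -0.06, was -0.33 as deposited. For CM in MEKK1-/-, the calls numbered 851, and 45 as deposited, 463 with arrays set to the same median, 2047 by the z-test and 1438 with the replicate block. Of the other epithelial genes 2 were called, and 0 as deposited, 1 with the same median, with z-scores in limma or in a fit of the groups compared, 4 by the z-test and 6 with the block. Between genotypes untreated, the calls numbered 0, and 817 by the z-test (2 other epithelial genes) and 1 without both MEKK1-/- replicate 1 arrays. Between genotypes with CM, the calls numbered 1, and 7 with the same median, 460 by the z-test (1 other epithelial gene), 0 with the block or in a fit of the groups compared and 2 without both MEKK1-/- replicate 1 arrays. The interaction had 0 calls and 20 by the z-test. The use of the block in MEKK1+/+ rests on numbers that did not meet the pairing minimum, and in MEKK1-/- replicates 3 and 4 each correlated best with the other number. Calls of the 10 genes are not given, since these comparisons entered their choice, nor is their median under the filter, which KRT14, KRT18 and CLDN4 pass only through MEKK1-/- arrays.

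Leaving out each array in turn, the calls ranged from 505 (without MEKK1+/+ untreated replicate 3) to 992 for CM in MEKK1+/+, with 1 to 3 other epithelial genes, and from 473 (without MEKK1-/- untreated replicate 3) to 1029 (without MEKK1-/- CM replicate 1) for CM in MEKK1-/-, with 1 to 3. They ranged from 0 to 1 between genotypes untreated, 0 to 2 with CM and 0 to 1 for the interaction. The median of the 10 genes ran from -0.09 to -0.05 for CM in MEKK1+/+, from -0.47 (without MEKK1-/- CM replicate 1) to 0.39 (without MEKK1-/- untreated replicate 1) in MEKK1-/-, from 0.12 (without MEKK1-/- untreated replicate 1) to 0.61 between genotypes untreated, from 0.12 (without MEKK1-/- CM replicate 1) to 0.71 with CM and from -0.37 to 0.48 for the interaction. Leaving out 1 of the MEKK1-/- replicate 1 arrays leaves the other without its counterpart, so the effect of CM on KRT8 ran from -1.37 to 0.50. Signal over background limits KRT5, JUP and DSP, whose probes gave almost no value above the level without signal.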

Other observations

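KRT23, a keratin outside the 10 genes and named after its values were seen, was higher with CM on all 4 treated than on all 4 untreated arrays of each genotype, by 0.84 (SE 0.26, limma adjusted p = 0.0823) in MEKK1+/+ and 0.79 (SE 0.26, limma adjusted p = 0.109) in MEKK1-/-, so it missed the threshold in both. With the replicate number as a block it passed in MEKK1+/+ (limma adjusted p = 0.0427), where the numbers did not meet the pairing minimum, and not in MEKK1-/- (limma adjusted p = 0.0545), and the z-test called it in MEKK1+/+. With CM it lay at 7.59 to 8.26 in MEKK1+/+, and in MEKK1-/- at 7.19 to 8.68 with its highest value on replicate 1. Untreated MEKK1-/- arrays were at 6.79 to 6.96, all under the level without signal. Without both MEKK1-/- replicate 1 arrays the MEKK1+/+ difference stayed at 0.84 and its limma adjusted p was 0.00546, and the MEKK1-/- difference was 0.48 (limma adjusted p = 0.17).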
